A study of Mus musculus with 12 samples.

Results

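The pre-T cell receptor (pre-TCR) and the CD3 complex that carries its signal are described here through 5 genes, taken by name: Ptcra, Cd3d, Cd3e, Cd3g and Cd247. They were 5 of the 43629 genes in the count table, and all 5 were among the 13944 genes with enough reads to be tested. Total RNA was sequenced from pre-T cells of the thymus of C57BL/6 mice, with 4 biological replicates for each of 3 groups and 12 libraries in all. The DN3a and DN3b groups were control cells with the genotype Zfp36l1fl/fl, Zfp36l2fl/fl and no Cre given. The third group, called DCKO here, was labelled DN3 without a or b and carried the same floxed alleles together with CD2cre, a Cre recombinase transgene driven by CD2 regulatory elements, which act in lymphocytes. All 3 groups therefore carried floxed alleles, and an effect of Cre itself and of losing both genes cannot be told apart. The ages, sexes and sorting gates of the mice and cells were not used here.

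DN3 thymocytes lack CD4 and CD8 and are the stage at which T cell receptor beta genes are rearranged. A functional beta chain pairs with the invariant pre-TCR alpha chain, the product of Ptcra, and this pair associates with CD3 delta, epsilon and gamma (Cd3d, Cd3e, Cd3g) and with the zeta chain (Cd247), whose cytoplasmic tyrosine motifs (ITAMs) pass the signal on. Signalling through this complex moves cells from DN3a to DN3b, a step called beta selection, and the mature alpha chain later takes the place of the pre-TCR alpha chain.

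The positions are those of GENCODE release M21 on GRCm38. Ptcra (ENSMUSG00000036858) lies on the minus strand at chr17:46755663-46763712, with 4 exons. Cd3g (ENSMUSG00000002033, minus strand, chr9:44969572-44980431, 7 exons), Cd3d (ENSMUSG00000032094, plus strand, chr9:44981786-44987339, 5 exons) and Cd3e (ENSMUSG00000032093, minus strand, chr9:44998740-45009627, 8 exons) form a cluster. Cd3g and Cd3d start 1355 bases apart and run away from each other, and the starts of Cd3d and Cd3e are 27841 bases apart. Cd247 (ENSMUSG00000005763, plus strand, chr1:165788681-165877277, 8 exons) lies alone on another chromosome. The promoters below are those of Ptcra, the one chain particular to the pre-TCR, and of the 3 clustered Cd3 genes, whose levels and ratios are compared below. They are the 250 bases before the RefSeq start (GRCm38.p6), read 5′ to 3′ on the strand of the gene, and capitals mark E-boxes (CANNTG), the motif of E proteins such as the products of Tcf3 and Tcf12.
Ptcra, chr17:46763713-46763962, minus strand: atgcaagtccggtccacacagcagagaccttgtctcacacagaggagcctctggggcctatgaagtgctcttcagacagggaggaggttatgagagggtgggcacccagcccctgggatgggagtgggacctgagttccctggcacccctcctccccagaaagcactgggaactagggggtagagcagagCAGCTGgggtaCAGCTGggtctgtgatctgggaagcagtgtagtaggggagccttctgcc
Cd3g, chr9:44980432-44980681, minus strand: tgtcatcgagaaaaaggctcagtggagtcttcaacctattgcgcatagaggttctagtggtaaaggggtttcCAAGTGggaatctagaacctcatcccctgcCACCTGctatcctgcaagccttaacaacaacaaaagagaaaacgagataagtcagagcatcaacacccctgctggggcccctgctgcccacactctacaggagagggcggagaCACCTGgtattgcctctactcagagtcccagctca
Cd3d, chr9:44981536-44981785, plus strand: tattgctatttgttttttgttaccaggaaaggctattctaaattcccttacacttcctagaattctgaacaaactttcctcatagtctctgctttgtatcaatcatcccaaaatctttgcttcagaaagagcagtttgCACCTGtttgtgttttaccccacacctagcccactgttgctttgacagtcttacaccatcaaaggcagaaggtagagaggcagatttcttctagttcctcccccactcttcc
Cd3e, chr9:45009612-45009861, minus strand: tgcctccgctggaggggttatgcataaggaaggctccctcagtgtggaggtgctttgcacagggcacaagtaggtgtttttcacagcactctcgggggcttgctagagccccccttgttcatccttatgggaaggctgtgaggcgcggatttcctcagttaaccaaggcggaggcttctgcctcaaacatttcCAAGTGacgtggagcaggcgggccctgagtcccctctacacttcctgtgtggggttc

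Both E-boxes of the Ptcra promoter read CAGCTG, at positions -60 and -49 from the start. The Cd3g promoter held 3 E-boxes, 2 of them CACCTG, and the Cd3d promoter held 1, also CACCTG. One more stood in the Cd3e promoter, and that of Cd247 (chr1:165788431-165788680, not printed) held 2. Searched on both strands, an E-box was present in 66% of 27025 promoters of the same length, so most windows of this size hold one. TGGGAA, the core bound by the Notch partner RBPJ, was present in 21.5% of promoters. It occurred 2 times in the Ptcra promoter, at positions -84 and -32, once each in those of Cd3e and Cd3g, and not in the windows of Cd3d or Cd247. The ETS core AGGAAG (29.2% of promoters) had 2 matches in Cd3e and 1 each in Cd3d and Cd247. The GATA core AGATAA (10.3% of promoters) had 1 match, in Cd3g, and the RUNX core TGTGGT (14.2%) had none in these 5 windows. These letter matches describe the sequence and say nothing of binding.

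The products of Zfp36l1 and Zfp36l2 are zinc finger proteins known to bind AU-rich elements in the 3′ UTRs of messenger RNA, so the 3′ UTRs of the principal transcripts were searched on the sense strand. The heptamer TATTTAT was in none of the 5 UTRs and in 26.1% of 20408 annotated 3′ UTRs. The pentamer ATTTA, found in 62.8% of those UTRs, occurred 2 times in Cd3e and 1 time in Cd247, and not in those of Ptcra, Cd3d or Cd3g. The 5 UTRs were between 363 bases (Cd3g) and 997 bases (Cd247) long, and the median of all was 851. The 3 pentamer sites follow, with the pentamer in capitals.
Cd3e, chr9:44999101-44999127, minus strand: tattcctttttATTTAatctttttttt
Cd3e, chr9:44998866-44998892, minus strand: ggtcctgccccATTTAtagatcctggc
Cd247, chr1:165862010-165862036, plus strand: tgggttttttaATTTAtaccagcttgc

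The libraries held 28479157 to 45975678 counts, and each subunit gene had at least 1236 reads in every library. Levels are CPM, the counts of a gene per 1000000 counts of a library, on TMM-scaled library sizes, with the SD over 4 libraries. The targeted genes were low in the DCKO libraries. Zfp36l1 was 33.9 ± 7.15 CPM in DN3a cells, 14.3 ± 6.13 in DN3b and 2.33 ± 1.01 in DCKO, and Zfp36l2 was 541 ± 145, 364 ± 79.4 and 63.9 ± 20.1. The 9 genes listed as markers of the DN3 stage, Cd3e and Ptcra among them, were not alike across groups. The recombination gene Rag1 had group means of 1812, 997 and 4315 CPM (DN3a, then DN3b, then DCKO). Il2ra had means of 654, 142 and 225 and Tcf7 of 594, 1183 and 888, so single markers went different ways. The list summed to 6672 to 7783 CPM, 5112 to 6653 and 7965 to 12092 in the same order. Some marker lists of other cells also differed between groups. Among their more abundant genes were Ccr9, with group means of 200.1, 100.3 and 206 CPM (DN3a, then DN3b, then DCKO), and Bst2 (68.8, 64.2 and 114). Others were Epcam (96.1, 24.4 and 12.6), Nkg7 (55.7, 14.0 and 23.0), Cd79b (48.7, 18.0 and 20.4) and Cd163l1 (36.2, 31.1 and 47.5). The 4 gamma-delta T cell markers in the count table, Cd163l1 among them, overlapped between groups. They summed to 66.3 to 84.4 CPM, 46.6 to 74.2 and 42.4 to 125 in the same order. The 5 genes listed for thymocytes that express CD4 and CD8 summed to 110.3 to 286 CPM in the libraries of DN3a, 79.8 to 232 in those of DN3b and 214 to 254 in those of DCKO. The 5 dendritic markers summed to 62.7 to 97.1 CPM, 52.1 to 114 and 111 to 141 in the same order. The 5 genes listed for B cells summed to 42.5 to 58.3 CPM in the DN3a libraries, while the sums were 9.73 to 32.1 in DN3b libraries and 18.6 to 24.4 in those of DCKO, and of these only Cd79b had enough reads to be tested. The summed stromal markers were 75.1 to 130.0 CPM in the DN3a libraries, 13.0 to 46.5 in DN3b libraries and 9.25 to 17.4 in those of DCKO, with Foxn1 and Krt5 at 0 in all DN3a libraries. Their part in the results was not tested. A single feature, ENSMUSG00000045999, took 9.02% of the counts of DCKO library 1.

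Per kilobase of the principal transcript, Cd3g was the most abundant subunit messenger in every group. It stood at 1719 CPM per kb in DN3a, 754 in DN3b and 1809 in DCKO. Cd3d followed at 285, 151 and 211, and Cd247 at 190 (189.6), 143 and 156. Ptcra (106, 48.5 and 75.7) and Cd3e (81.8, 58.2 and 68.5) were the lowest. The ranges of Ptcra and Cd3e overlapped in all 3 groups, so their order is not resolved. The order of the lower 3 depends on the length used. Over all annotated exons of a gene, the mean of Ptcra came above those of Cd247 and Cd3e, but in DN3b it was 48.5 ± 34.8 CPM per kb against 43.9 ± 8.05 for Cd247, a gap smaller than the SD of Ptcra. All annotated exons together cover 4080 bases of Cd3e and 5329 of Cd247, against 1462 and 1632 in their principal transcripts.

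Between DN3a and DN3b, all 5 subunit messengers fell, by 1.32-fold for Cd247 to 2.28-fold for Cd3g. Among all tested genes, 52.6% passed the same test in this comparison, 27.4% as higher in DN3b and 25.2% as lower, so each call alone is common here. The median log2 fold change of the 5 was -0.92, against -0.02 for all genes. The share of all genes whose groups do not overlap is not given, so non-overlap here and below only describes the named genes. Here and below, log2 fold changes are given ± SE. Adjusted p-values are from edgeR's quasi-likelihood test with Benjamini-Hochberg adjustment over all tested genes. Unless a block is stated, this test does not pair libraries of the same number. In bulk RNA, less RNA per cell and fewer cells that express a gene cannot be told apart. The labels call the samples biological replicates, without saying whether they came from separate mice.

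Cd3g, encoding the gamma chain, was at 1780.1, 1734, 1632 and 1888 CPM in DN3a libraries 1 to 4. It was at 1062, 750.1, 546 and 728 CPM in DN3b. The highest DN3b library remained below the lowest DN3a library, and the log2 fold change was -1.19 ± 0.16 (adjusted p = 0.000118). Cd3d, encoding the delta chain, read 517, 435, 399 and 495 CPM in DN3a and 274, 253, 199.8 and 247 in DN3b. Its groups did not overlap either, with a log2 fold change of -0.92 ± 0.13 (adjusted p = 0.000161). Both kept their call in 23 of 23 alternative analyses.

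Cd3e, encoding the epsilon chain that pairs with both gamma and delta, changed less. It was at 128, 111, 113 and 127 CPM in DN3a and at 82.4, 89.2, 84.1 and 84.6 in DN3b. The groups did not overlap and the DN3b libraries were within 1.08-fold of each other, with a log2 fold change of -0.49 ± 0.17 (adjusted p = 0.0269). Cd247, encoding the zeta chain, read 385, 272, 311 and 269.8 CPM in DN3a and 297, 219, 219 and 201 in DN3b. Library 1 was the highest of both groups and its DN3b value exceeded 2 DN3a values, so the groups overlapped. The log2 fold change of Cd247 was -0.40 ± 0.14 (adjusted p = 0.0269).

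Ptcra, encoding the pre-TCR alpha chain, had the widest spread of the 5. DN3a libraries 1 to 4 held 237, 92.6, 94.5 and 122 CPM, and DN3b libraries held 129, 41.5, 37.8 and 40.2. Library 1 of each group stood far above the other 3, and DN3b library 1 exceeded 3 of the 4 DN3a libraries. The log2 fold change was -1.13 ± 0.42 (adjusted p = 0.0364). The spread of Ptcra between replicates, an SD of 0.66 on the log2 scale, was larger than that of 88.7% of tested genes, whereas Cd3d (0.20), Cd247 (0.20), Cd3g (0.24) and Cd3e (0.27) lay near the median gene at 0.26.

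The calls for Ptcra, Cd3e and Cd247 were lost when some single libraries were left out. Without DN3a library 1, the log2 fold change was -0.74 for Ptcra (adjusted p = 0.130), -0.46 for Cd3e (adjusted p = 0.0544) and -0.29 for Cd247 (adjusted p = 0.0756), and without DN3b library 1 that of Ptcra was -1.77. They were also lost, with adjusted p-values of 0.0520 to 0.0944, for Ptcra without DN3b library 2, 3 or 4 (log2 fold changes of -1.0 to -0.97), for Cd3e without DN3a library 4 or DN3b library 3 (-0.46 and -0.49), and for Cd247 without DN3a library 3 or DN3b library 2, 3 or 4 (-0.40 to -0.35), at values close to those with all libraries. With the library number as a block, all 5 genes passed, with adjusted p-values of 1.71e-05 to 0.000412. Over all genes this block called 4529 as higher in DN3b and 4704 as lower, so such calls are common. Within libraries of the same number, each of the 5 genes was lower in DN3b in 4 of 4 numbers. The share of all genes with this pattern was not counted. Ptcra was 1.84 to 3.04-fold lower, Cd3g 1.68 to 2.99-fold, Cd3d 1.72 to 2.0-fold, Cd3e 1.24 to 1.56-fold and Cd247 1.24 to 1.42-fold. The high Ptcra of library 1 was thus shared by DN3a and DN3b. In the authors' deposited DESeq2 table of this comparison, the adjusted p was 0.0499 for Cd247, 0.0202 for Ptcra and 1.07e-05 for Cd3e.

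**Figure D1:**
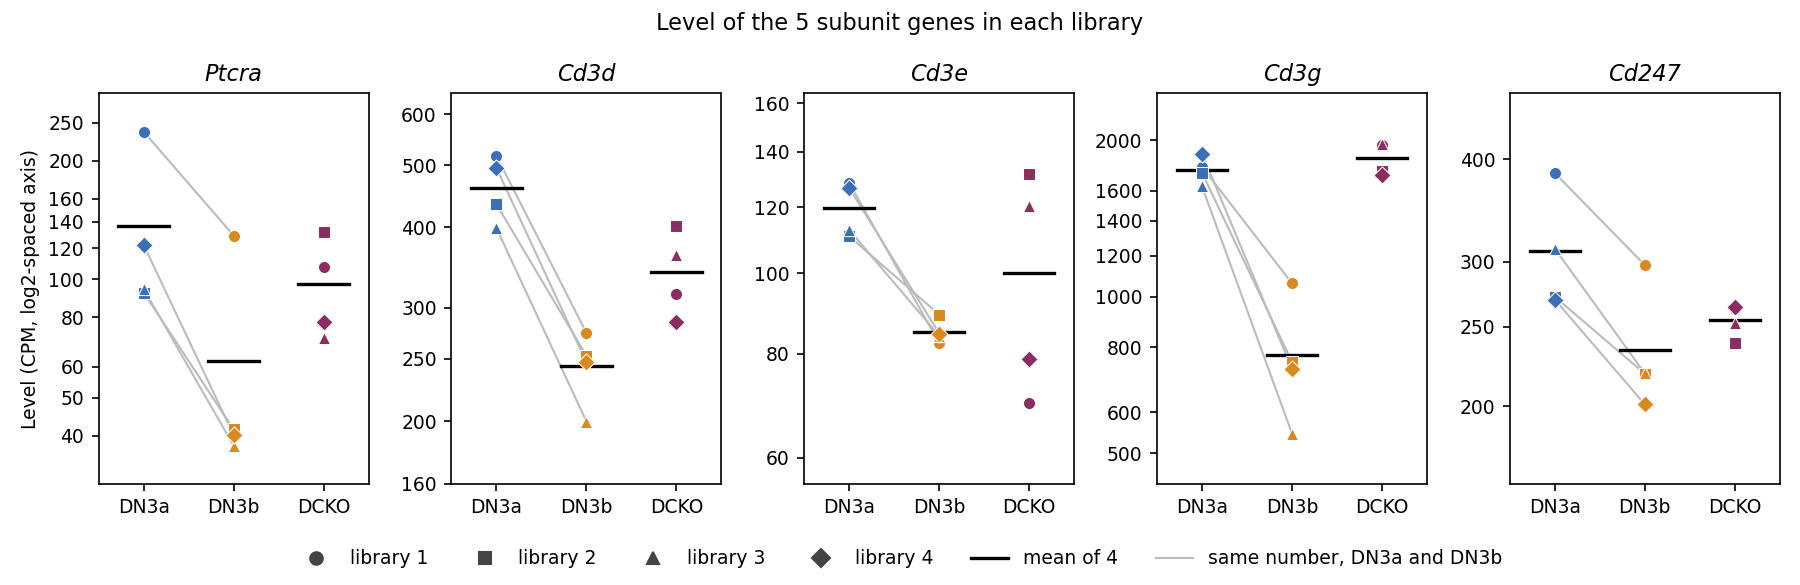
Level of each subunit gene in CPM (log2-spaced axis, own range per panel) in the 4 libraries of each group. Symbols are library numbers, black bars are group means and grey lines join DN3a and DN3b libraries of the same number. All grey lines slope down, Ptcra library 1 lies above the other libraries of both control groups, and the 4 DCKO values of Cd3g (1719.6 to 1970.3 CPM) lie in and above the DN3a range.

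The comparison of DCKO cells with each control group asked which subunit levels differ in the cells that carry CD2cre. Messengers of both targeted genes were reduced in DCKO but not absent, and their proteins were not measured here. Both comparisons use the same 4 DCKO libraries, and the comparisons of DN3b and of DCKO with DN3a share the DN3a libraries. Against DN3b, Cd3g and Cd3d were higher in DCKO and Ptcra, Cd3e and Cd247 did not pass the test. Of all tested genes, 18.9% passed against DN3b, 10.3% as higher in DCKO and 8.58% as lower. Against DN3a, Cd3d alone of the 5 passed, as lower in DCKO, where 60.2% of all genes passed, 30.7% as higher and 29.5% as lower. The median log2 fold change of the 5 genes was 0.49 against DN3b (all genes -0.02) and -0.28 against DN3a (all genes -0.04).

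Cd3g in the 4 DCKO libraries was at 1963, 1751, 1970.3 and 1719.6 CPM, above every DN3b library and in or above the range of DN3a. It was 2.40-fold higher than in DN3b, a log2 fold change of 1.26 ± 0.17 (adjusted p = 0.000293), and the call held in 23 of 23 alternative analyses. Of all tested genes, 97.7% had a lower log2 fold change than Cd3g in this comparison. Against DN3a, the log2 fold change of Cd3g was 0.07, with a 95% interval of -0.28 to 0.42 (adjusted p = 0.712). Its sign was not fixed by the data, since upper quartile scaling gave -0.15.

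Cd3d in DCKO libraries read 315, 403, 362 and 285 CPM. These values lay above all 4 DN3b libraries, and only library 2, at 403 CPM, exceeded the lowest DN3a library. The log2 fold change was 0.49 ± 0.13 against DN3b (adjusted p = 0.0237) and -0.43 ± 0.13 against DN3a (adjusted p = 0.0130). The call against DN3a held in 23 of 23 alternatives. That against DN3b was lost without DN3b library 2 or 3 or without DCKO library 2 or 3, at log2 fold changes of 0.38 to 0.48 and adjusted p-values up to 0.0918.

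Cd3e varied more between DCKO libraries than between control libraries. It was at 69.8, 132, 120.4 and 78.8 CPM, so that libraries 1 and 4 lay below all DN3b values and library 2 above all DN3a values. ENSMUSG00000045999 took 9.02% and 1.48% of the counts in DCKO libraries 1 and 4, and 0.0181% and 0.00629% in libraries 2 and 3. It also took 2.61% in DN3a library 4 and 2.21% in DN3b library 1, where Cd3e was at 127 and 82.4 CPM. With library sizes computed without this feature, the log2 fold change of Cd3e was -0.29 against DN3a (adjusted p = 0.143) and 0.21 against DN3b (adjusted p = 0.400), and no call changed. Such a change of library size scales all genes of a library alike. Whether the share of this feature bears on Cd3e was not tested. The log2 fold change of Cd3e was 0.24 (95% interval -0.13 to 0.60, adjusted p = 0.354) against DN3b and -0.26 (-0.62 to 0.11, adjusted p = 0.207) against DN3a. Without DCKO library 2, the value against DN3a was -0.44 (adjusted p = 0.0307), and with upper quartile scaling it was -0.48 (adjusted p = 0.0267).

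Ptcra in DCKO was at 108, 132, 70.8 and 77.9 CPM, between the group means of DN3a (137 ± 68.4) and DN3b (62.2 ± 44.7) and overlapping both groups. The log2 fold change was 0.64 against DN3b (95% interval -0.26 to 1.54, adjusted p = 0.300) and -0.49 against DN3a (-1.39 to 0.40, adjusted p = 0.319). DN3b library 1 decided the first of these. Without it, Ptcra was higher in DCKO by 1.28 on the log2 scale (adjusted p = 0.0153), and leaving out library 1 of both control groups gave 1.28 (adjusted p = 0.00115).

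Cd247 in DCKO was at 263, 239, 253 and 264 CPM, the tightest of the 5 at 255 ± 11.9. All 4 values lay below the lowest DN3a library, yet the log2 fold change against DN3a, -0.28 ± 0.14, did not pass the test (95% interval -0.58 to 0.02, adjusted p = 0.0960). With upper quartile scaling it was -0.50 (adjusted p = 0.00645), and without DN3b library 1, which enters the shared estimate of the spread, it passed with an adjusted p of 0.0489. Against DN3b it was 0.12 (-0.18 to 0.42, adjusted p = 0.575). In the authors' deposited tables, the same 2 genes passed at 0.05 against DN3b, Cd3g with a log2 fold change of 1.19 and Cd3d with 0.47, and Cd3d alone passed against DN3a with -0.42.

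**Figure D2:**
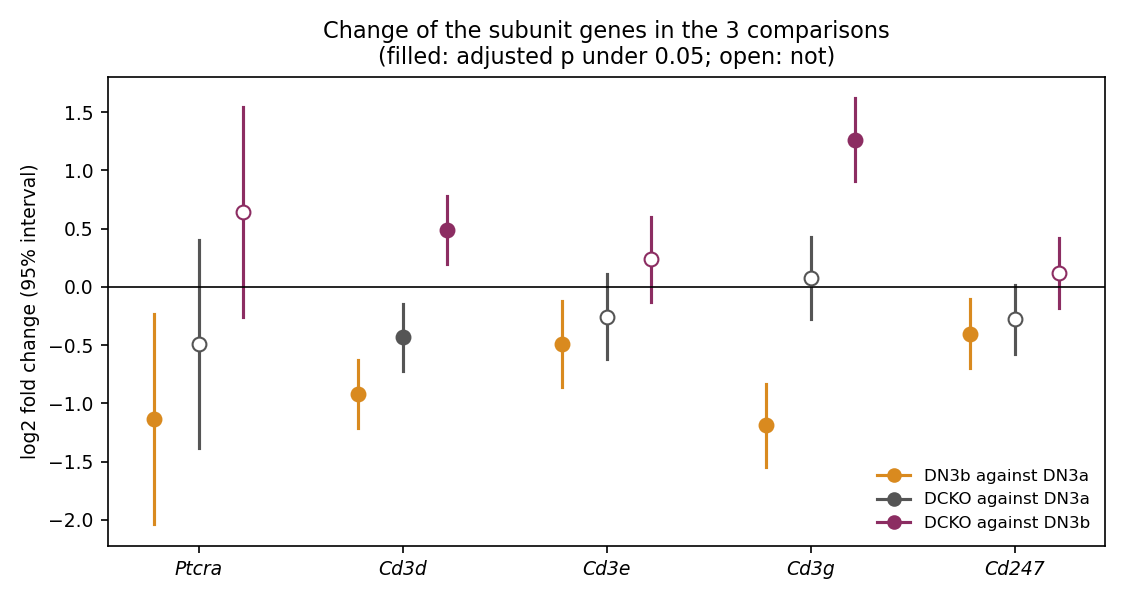
Fitted log2 fold change of each subunit gene in the 3 comparisons (points) with 95% intervals (lines). Filled points passed an adjusted p of 0.05. All 5 points for DN3b against DN3a lie below 0, and Cd3g has the largest rise in DCKO against DN3b, 1.26.

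Ratios between the 3 genes of the Cd3 cluster were compared next. The ratio of Cd3g to Cd3d, the divergent pair shown in the promoter sequences, was 3.44, 3.99, 4.09 and 3.81 in DN3a and 3.87, 2.97, 2.73 and 2.95 in DN3b. In DCKO it was 6.23, 4.35, 5.44 and 6.02, above every control library. On the log2 scale the ratio was higher in DCKO by 0.51 than in DN3a and by 0.82 than in DN3b. In each case a two-sided exact permutation test over the 4 and 4 libraries gave p = 0.0286, the smallest that 70 arrangements allow, and p = 0.0514 after adjustment over the 9 ratio tests. A ratio of CPM within a library does not depend on the scaling of that library.

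The other ratios involve Cd3e. The ratio of Cd3e to Cd3d was 0.248 to 0.283 in DN3a and 0.300 to 0.421 in DN3b, without overlap (exact permutation p = 0.0286, adjusted 0.0514), and 0.221 to 0.333 in DCKO, overlapping both. The ratio of Cd3g to Cd3e was 13.9 to 15.7 in DN3a and 6.49 to 12.9 in DN3b. In DCKO it ran from 13.3 to 28.1, above DN3b in 4 of 4 libraries (exact permutation p = 0.0286, adjusted 0.0514) and overlapping DN3a (exact permutation p = 0.2, adjusted 0.225). None of the 9 adjusted ratio tests passed 0.05. For a test at the smallest p, the adjusted value depends on how many of the 9 tests reach that p. All that reached it therefore share 0.0514, which does not weigh any single ratio. Those between DN3a and DN3b permute libraries freely. With same-numbered libraries as 4 pairs, an exact permutation of signs cannot go below p = 0.125, the value reached for Cd3e to Cd3d and for Cd3g to Cd3e.

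**Figure D3:**
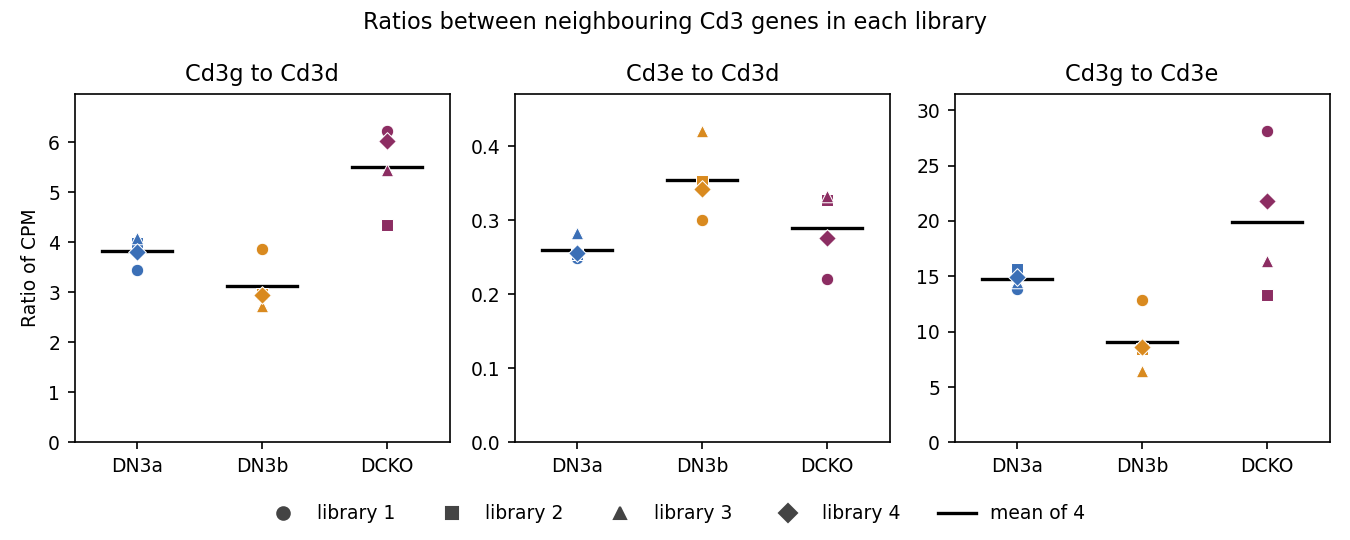
Ratio of CPM between pairs of clustered Cd3 genes in each library (linear axes from 0, symbols by library number, black bars for group means). The Cd3g to Cd3d ratio is 4.35 to 6.23 in the 4 DCKO libraries and at most 4.09 in the 8 control libraries.

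Genes around the cluster were described in the same way. With their whole body within 250 kb of the cluster, 29 other genes were annotated, 18 had a row in the count table and 13 had enough reads to be tested. Of the 13, 4 were higher and 7 lower in DN3b than in DN3a, with a median log2 fold change of -0.32, where 27.4% of all genes were higher and 25.2% lower. Against DN3b, 6 were higher in DCKO and 7 did not pass, with a median of 0.70, where 10.3% of all genes were higher. Against DN3a, 5 were higher and 1 lower in DCKO, with a median of 0.06, where 30.7% of all genes were higher and 29.5% lower.

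Mpzl2, a cell adhesion protein gene whose start lies 58.0 kb from that of Cd3d, had a pattern like that of Cd3g. It was at 152, 186, 133 and 259.7 CPM in the DN3a libraries, at 49.1, 47.9, 28.9 and 48.8 in DN3b and at 175, 183, 207 and 189.6 in DCKO. DN3b overlapped neither of the other groups, with log2 fold changes of -2.06 ± 0.21 for DN3b against DN3a (adjusted p = 3.15e-05) and 2.11 ± 0.21 for DCKO against DN3b (adjusted p = 4.01e-05). Scn2b, a sodium channel beta subunit gene at 136.0 kb, was higher in DCKO than in DN3b by 1.52 ± 0.35 (adjusted p = 0.00971), and Mpzl3 at 73.4 kb by 0.70 ± 0.13 (adjusted p = 0.00310). On the other side, Ube4a, a ubiquitin ligase gene next to Cd3g that was picked after its values were seen, had log2 fold changes of -0.32 ± 0.09 for DN3b against DN3a (adjusted p = 0.00917) and 0.38 ± 0.09 for DCKO against DN3b (adjusted p = 0.0106). Farther out, Atp5l, an ATP synthase subunit gene, was higher in DN3b than in DN3a by 0.91 ± 0.14 (adjusted p = 0.000218) and in DCKO than in DN3a by 1.33 ± 0.14 (adjusted p = 1.01e-05). Kmt2a, a histone methyltransferase gene, was lower by 0.84 in DN3b (log2 fold change -0.84, adjusted p = 0.000688) and in DCKO by 1.07 (log2 fold change -1.07, adjusted p = 8.74e-05).

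**Figure D4:**
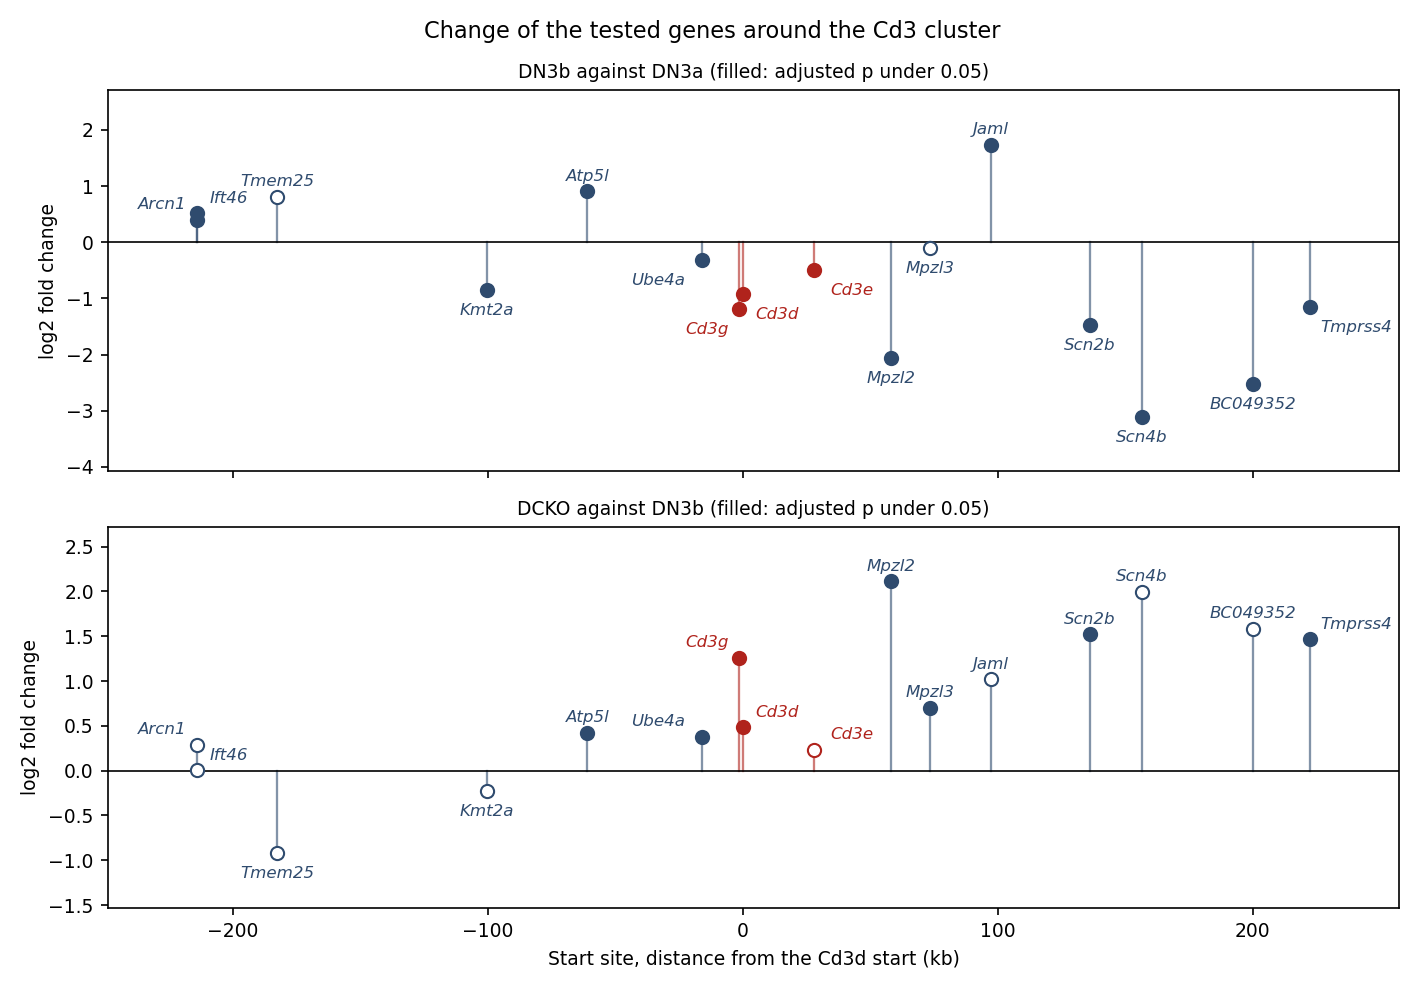
Log2 fold change of the 3 clustered Cd3 genes (red) and the 13 tested neighbours (blue) against the distance of their start from the Cd3d start in kb, for DN3b against DN3a (upper panel) and DCKO against DN3b (lower panel). Filled points passed an adjusted p of 0.05. Cd3g and Mpzl2 are below 0 in the upper panel and above 0 in the lower panel.

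The receptor chains that use the CD3 complex were followed through their constant genes. Of 8 listed, Trdc was not analysed here and 7 were tested. In DN3b, 3 were higher and 4 lower than in DN3a (median log2 fold change -1.11, with 52.6% of all genes called), and in DCKO 2 were higher and 4 lower than in DN3a (median -1.58, with 60.2% of all genes called). The beta constant gene Trbc2 was at 669 ± 9.03 CPM in DN3a cells, 1066 ± 39.9 in DN3b and 958 ± 91.5 in DCKO, with log2 fold changes of 0.67 ± 0.09 in DN3b (adjusted p = 0.000101) and 0.52 ± 0.09 in DCKO (adjusted p = 0.000337) against DN3a. Trbc1 rose in DCKO against DN3a by 0.68 ± 0.11 (adjusted p = 0.000250). The beta constant genes are near-identical, as are some of the gamma constant genes, so that reads can be split or lost between copies.

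The gamma constant genes fell in both comparisons with DN3a. Tcrg-C1 was at 503 ± 46.7 CPM in DN3a cells, 185 ± 68.0 in DN3b and 169 ± 76.2 in DCKO. Tcrg-C4 was lower by 1.28 in DN3b (log2 fold change -1.28, adjusted p = 0.000983) and by 1.95 in DCKO (log2 fold change -1.95, adjusted p = 3.97e-05). Tcrg-C2 was lower in DCKO than in both control groups, with log2 fold changes of -2.05 against DN3a (adjusted p = 1.71e-05) and -0.94 against DN3b (adjusted p = 0.0133). Trac, the alpha constant gene, was low throughout. It read 0.0295, 0.299, 0.261 and 0.390 CPM in DN3a and 0.833, 1.52, 1.94 and 3.87 in DN3b, without overlap. In DCKO it was at 0.161, 0.306, 0.0261 and 0.128 CPM, below all DN3b libraries (log2 fold change -3.69 ± 0.68, adjusted p = 0.00267). Markers listed for thymocytes that express CD4 and CD8 did not move as a whole. Cd8b1 had group means of 0.453 CPM in DN3a cells, 18.7 in DN3b and 6.14 in DCKO, Cd4 of 1.21, 1.41 and 0.987, and Ccr9 was lowest in DN3b. Their part in these differences was not tested.

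Downstream of the CD3 chains, 30 genes of proximal signalling were listed and all 30 were tested. In DN3b, 3 were higher and 14 lower than in DN3a (median log2 fold change -0.28, all genes -0.02). In DCKO, 1 was higher and 15 lower than in DN3a (median -0.39, all genes -0.04), and 2 were higher and 4 lower than in DN3b (median 0.07, all genes -0.02). The numbers called, 17, 16 and 6 of 30, are near the shares over all genes, 52.6%, 60.2% and 18.9%. Zap70, the kinase that docks on phosphorylated ITAMs, went against the subunits. It was at 17.5, 14.6, 20.1 and 24.8 CPM in DN3a, at 63.1, 53.0, 69.2 and 84.1 in DN3b and at 16.9, 17.1, 14.3 and 17.5 in DCKO. DN3b stood above every other library, with log2 fold changes of 1.81 against DN3a (adjusted p = 2.63e-05) and of -2.03 for DCKO against DN3b (adjusted p = 1.18e-05).

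Cblb, Ptpn22 and Prkcq fell from the DN3a level in both other groups. Cblb, a ubiquitin ligase that restrains receptor signalling, was at 220.2, 127, 124 and 185 CPM in DN3a libraries, 62.8, 45.3, 44.2 and 46.7 in DN3b and 49.4, 86.9, 68.2 and 56.7 in DCKO. All DN3a libraries were above all others, with log2 fold changes of -1.72 for DN3b (adjusted p = 7.04e-05) and -1.33 for DCKO (adjusted p = 0.000188). Ptpn22, a phosphatase, was lower in DCKO than in DN3a (log2 fold change -1.06, adjusted p = 4.36e-05), as was Prkcq, a protein kinase C gene (log2 fold change -0.73, adjusted p = 0.000250). Ptpn6, the phosphatase SHP-1, was at 189 ± 14.3 CPM in DN3b and 116 ± 10.2 in DCKO (log2 fold change -0.70, adjusted p = 0.00286). Of the other adaptors with ITAM or related motifs, 4 of 5 were tested and 2 passed between the control groups, both lower in DN3b, where 52.6% of all genes were called. Cd79b, known from the B cell receptor, fell by 1.43 on the log2 scale (adjusted p = 0.00134), and Fcer1g stayed under 1 CPM in every library.

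The list of transcription factor genes known to act on Ptcra or on Cd3 genes held 19 members, and all 19 were tested. In DN3b, 6 were higher and 6 lower than in DN3a, in DCKO 3 were higher and 4 lower than in DN3a, and in DCKO 4 were higher and 3 lower than in DN3b. Over all genes, 52.6%, 60.2% and 18.9% were called in these comparisons. Id3, an inhibitor of E proteins, was at 5.46, 3.54, 4.48 and 3.61 CPM in DN3a, at 21.1, 16.3, 19.5 and 12.5 in DN3b and at 3.87, 3.34, 2.43 and 5.65 in DCKO. DN3b was above all other libraries, with log2 fold changes of 2.02 against DN3a (adjusted p = 7.48e-05) and of -2.19 for DCKO against DN3b (adjusted p = 0.000156). Ikzf3, encoding Aiolos, was likewise higher in DN3b than in DN3a (log2 fold change 3.26, adjusted p = 0.000110) and lower in DCKO than in DN3b (log2 fold change -3.19, adjusted p = 0.000466). Lef1, a partner of beta-catenin, was lower in DCKO than in DN3b by 1.28 (log2 fold change -1.28, adjusted p = 0.000547). Cbfb, the RUNX partner, was higher in DCKO than in DN3a by 1.11 (adjusted p = 3.63e-05).

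Across the 12 libraries, the genes most like each subunit were found by the root mean square difference of centred log2 CPM among 8462 genes. Cd3g was closest to Pim1, a kinase gene, at 0.13, and then to Cpeb4 (0.19). Ptcra was closest to Cd82 (0.24), Creld1 (0.32) and Tbc1d8 (0.34), Cd3d to Vps37a (0.13), Spopl (0.14) and Mcl1 (0.14), and Cd3e to Atg13, Jmy and Usf3 (0.15 each). Cd247 was closest to Atp6v0b (0.05), Sqstm1 and Bsdc1 (0.07 each). None of the 3 genes nearest to a subunit was another subunit. Among the subunits, Cd3d was the nearest to each of the other 4 genes, from 0.25 for Cd3e to 0.50 for Ptcra.

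The annotation sets a limit for 2 of the genes. Exons of Cd247 share 3007 bases with Pou2f1 on the opposite strand, none of them in the principal transcript, and 206 bases with Gm16565 on the same strand. Cd3e shares 135 exon bases with the antisense gene Gm48719. Whether the counting used strand is not given in the sources used here. Reads from the bases shared with Gm16565 cannot be assigned to one gene, and those shared with Pou2f1 only if strand was used. Gm48719 has no row in the count table, so its reads could have been counted for Cd3e if strand was not used.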

How the data were processed

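Per the labels' protocols, RNA from the RNeasy Micro Kit was depleted of ribosomal RNA and made into TruSeq stranded libraries. TopHat2 2.0.12, Trim Galore, DESeq2 1.6.3, HTSeq and the build GRCm38 are named, without roles, in the submitters' processing notes. For strand setting and annotation release, the entry is not given in the sources used here. The authors deposited raw counts per Ensembl gene, and 42548 of 43629 IDs matched a symbol in GENCODE M21. Their deposited DESeq2 tables give log2 fold changes with standard errors and adjusted p-values, which are printed only where the authors' table is named.

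Counts were analysed in R 4.3.3 with edgeR 4.0.16. Genes passing filterByExpr (count minimum 10) were fitted with TMM factors and group as the only term over 12 libraries, leaving 9 residual degrees of freedom. Each of the 3 contrasts was tested two-sided at an adjusted p of 0.05. A standard error is the log2 fold change divided by the root of F. A prior count of 2 enters only the log2 CPM behind the replicate spread, the most alike genes and the correlations between libraries. CPM values and the log2 ratios carry no prior count. The scripts were tested on simulated data. All replicate pairs differed by more than sampling noise (lowest ratio of chi-square to its degrees of freedom 30.9), and PCR copies are not separated from molecules, so spreads between libraries are given as errors. Same-numbered DN3a and DN3b libraries deviated together (correlations 0.354 to 0.564, other numbers -0.412 to 0.0747). These numbers were taken as pairs only in the replicate block, in the sign permutation of the ratios and in the values within numbers. The main tests did not pair them. Same-numbered DCKO and control libraries did not deviate together (-0.257 to 0.119). The labels do not say what a number marks. DESeq2 1.42.0 and limma 3.58.1 served as alternatives, with other scaling, filters, a replicate block and libraries left out.

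The members, the gene lists and the rule for named genes were chosen with earlier results of these data known. The rule names the 5 members, the targeted genes and the 3 genes most like each member. From each list it also names at most 3 genes per comparison, those of smallest adjusted p. Notch1, Notch3, Tcf3, Lat, Ube4a, the marker genes and ENSMUSG00000045999 were named after their values were seen. Some genes named by this rule are left out of the text.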

Additional observations from a re-analysis of the deposited data

Results flagged for a closer look

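Ptcra in DN3b library 1, at 129 CPM, stood apart from the other 3 DN3b libraries at 37.8 to 41.5 CPM. Its gap to the nearest of them was 0.959 of the range of the group, above Dixon's 95% critical value for 4 samples. Among the 24 groups of values screened, this was the only one to pass, and chance flags about 1 in 20 groups.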

How the results depend on the processing

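The calls for Cd3g and Cd3d between DN3a and DN3b, for Cd3g between DCKO and DN3b and for Cd3d between DCKO and DN3a held in 23 of 23 alternatives each. The comparison of DN3b with DN3a over its 8 libraries alone gave -1.17 for Ptcra (adjusted p = 0.0579), and leaving out both control libraries numbered 1, chosen after seeing the data, gave -0.44 for Cd3e (adjusted p = 0.0812). Between DCKO and DN3a, upper quartile scaling gave -0.48 for Cd3e and -0.50 for Cd247, and the 8 libraries alone gave -0.32 for Cd247 (adjusted p = 0.0441). With upper quartile scaling, the median over all genes became -0.17, -0.26 and -0.10 in DN3b against DN3a, DCKO against DN3a and DCKO against DN3b, and the split of higher to lower calls from 3815 and 3519, 4275 and 4116 and 1438 and 1197 to 3021 and 4536, 3119 and 5528 and 1051 and 1644. Between DCKO and DN3b, leaving out both control libraries numbered 1 gave 1.28 for Ptcra, and leaving out DCKO libraries 1 and 2, also chosen after seeing the data, gave 0.41 for Cd3d (adjusted p = 0.166) and 950 called genes against 2635. The replicate block gave 0.47 for Cd3d in that comparison (adjusted p = 0.0984), so its call was lost, and 1062 called genes. Same-numbered DCKO and DN3b libraries did not deviate together, and the labels do not say whether they are pairs. In DN3b against DN3a the block changed no call of the 5 genes and gave -1.26 for Ptcra (adjusted p = 3.84e-05). Leaving out 1 library at a time gave, for DN3b against DN3a, -1.77 to -0.74 for Ptcra, -0.53 to -0.46 for Cd3e and -0.53 to -0.29 for Cd247. For DCKO against DN3a it gave -0.44 to -0.15 for Cd3e and -0.34 to -0.16 for Cd247. For DCKO against DN3b it gave 0.44 to 1.28 for Ptcra, 0.38 to 0.57 for Cd3d and 1601 to 3249 called genes. The log2 ratio of Cd3g to Cd3d then ran from -0.41 to -0.24 in DN3b against DN3a, 0.45 to 0.62 in DCKO against DN3a and 0.75 to 0.93 in DCKO against DN3b, that of Cd3g to Cd3e from -0.92 to -0.59, 0.19 to 0.55 and 0.93 to 1.30, and that of Cd3e to Cd3d from 0.35 to 0.51 in DN3b against DN3a. In these ratios the adjusted exact permutation p was 0.0429 at its lowest. Among the ratios that reached it was Cd3g to Cd3d in DCKO against DN3b, without DN3b library 1 (0.92) or DCKO library 2 (0.93). With all libraries, that ratio had an adjusted exact permutation p of 0.0514 and did not pass. Its unadjusted p was already the smallest possible with all libraries. The adjusted p of such a test depends on how many of the 9 ratio tests reach that value, so 0.0429 is not stronger evidence for this ratio. The cause of the changes between settings was not tested. Depth limited none of the 5 genes, and the spread of Ptcra between libraries set the width of its intervals.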

Other observations

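Notch1 and Notch3, whose products act through RBPJ, were high in the same control libraries as Ptcra. Notch1 was at 2310.4 CPM in DN3a library 1 and at 1026 to 1326 in the other 3, and at 1419 CPM in DN3b library 1 and 718 to 802 in the other 3. Notch3 was at 839 CPM in DN3a library 1, against 304 to 387 in the others, and at 360.0 CPM in DN3b library 1, against 54.5 to 104 in the others. In DCKO, Notch3 was at 137 to 214 CPM and Notch1 at 847 to 1166 CPM. Notch3 was lower in both other groups than in DN3a, with log2 fold changes of -1.61 in DN3b (adjusted p = 0.0179) and -1.36 in DCKO (adjusted p = 0.0337). Notch1 was lower in DN3b by 0.69 (log2 fold change -0.69, adjusted p = 0.0428) and did not pass in DCKO (log2 fold change -0.58, adjusted p = 0.0743). Whether these levels bear on those of Ptcra was not tested.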
